A study of Mus musculus with 2 samples.

Results

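Levels of 10 genes of the nerve-muscle synapse were read in RNA of newborn mouse skeletal muscle. They comprise the 5 subunit genes of the muscle acetylcholine receptor (Chrna1, Chrnb1, Chrnd, Chrng and Chrne) and 5 genes that build or occupy the endplate (Lrp4, Musk, Dok7, Rapsn and Colq). The genes were chosen by name for their role, and all 10 had a row among the 43346 genes of the deposited tables. Both libraries came from skeletal muscle of the mouse strain B6NCrl at postnatal age 0 days, untreated as far as the labels say, and form 1 group, so no conditions are compared. Each library was prepared by SmartSeq, a method that copies and amplifies whole cDNAs, from 13 pg of total RNA of a tissue portion of a single pup, an amount given as 1 cell equivalent. The input was tissue RNA, not an isolated cell or a dissected endplate. Both tissue records share a donor entry and sex was not recorded, so the spread between replicates can hold animal, tissue portion and library differences, which cannot be told apart.

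The muscle acetylcholine receptor is a channel of a pair of alpha subunits with a single beta, a single delta and either a gamma or an epsilon subunit. Fetal muscle makes the gamma form along the fibre, and in the mouse the epsilon form replaces it at the endplate in the first weeks after birth. Nerve-derived agrin binds the receptor LRP4, which activates the kinase MuSK with the adaptor DOK7, and rapsyn then gathers the channels under the nerve terminal. The collagen tail COLQ anchors acetylcholinesterase in the cleft.

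Because the subunit genes descend from a common ancestor, whether reads could pass between them was examined in their sequences. The coding sequences of Chrng and Chrne were identical at 64.3% of 1449 aligned positions, and the longest identical run was 15 bases. Over the 10 pairs of subunits identity ranged from 58.1% to 65.4%, with longest identical runs of 11 to 24 bases. Of the 100-base windows of their leading coding transcripts, those of Chrnb1, Chrnd, Chrng and Chrne held 0 shared with another gene of the annotation, and 3 of the 4287 windows of Chrna1 were shared with Gm48735. The 60-base coding stretch with the highest identity between gamma and epsilon is shown because the fetal and adult forms are told apart by such differences. Capitals mark the 11 bases that differ, and the other 49 are identical. The first stretch is coding bases 460 to 519 of Chrng-201 on chromosome 1, the second coding bases 454 to 513 of Chrne-202 on chromosome 11, both from GENCODE M21 transcripts.
Chrng-201: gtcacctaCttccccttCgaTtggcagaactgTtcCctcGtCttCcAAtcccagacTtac
Chrne-202: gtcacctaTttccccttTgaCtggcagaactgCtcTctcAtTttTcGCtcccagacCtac

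The RefSeq promoters of this gene pair are shown because one gene is the fetal and the other the adult partner in the same place of the channel. Each runs from 250 bases before to 50 after the RefSeq start on GRCm38.p6, at chr1:87205561-87205860 on the plus strand for Chrng and at chr11:70619145-70619444 on the minus strand for Chrne. Capitals mark E-boxes, the CANNTG motif read by myogenic factors and equal to its own reverse complement, and the N-box CCGGAA, searched on both strands, which is known from synapse-specific promoters. The RefSeq starts, 87205811 for Chrng and 70619194 for Chrne, are also the starts of Chrng-201 and Chrne-202, although other annotated transcripts of both genes begin further upstream. No match overlapped another. No binding was measured here, so the matches describe the letters only.
Chrng: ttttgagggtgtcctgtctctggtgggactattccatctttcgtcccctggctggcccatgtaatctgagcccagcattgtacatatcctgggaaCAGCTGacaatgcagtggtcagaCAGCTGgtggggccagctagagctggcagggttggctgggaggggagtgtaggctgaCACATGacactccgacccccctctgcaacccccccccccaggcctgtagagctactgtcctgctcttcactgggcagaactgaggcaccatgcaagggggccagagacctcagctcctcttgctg
Chrne: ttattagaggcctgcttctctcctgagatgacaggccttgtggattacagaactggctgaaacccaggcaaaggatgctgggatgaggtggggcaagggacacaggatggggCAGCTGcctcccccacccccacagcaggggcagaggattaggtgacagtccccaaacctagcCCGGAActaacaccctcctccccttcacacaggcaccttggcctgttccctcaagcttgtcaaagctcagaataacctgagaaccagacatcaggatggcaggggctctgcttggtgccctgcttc
The Chrng promoter held 3 E-boxes and 0 N-boxes, and the Chrne promoter held 1 E-box and 1 N-box. Of all 32851 promoters of that length, 72.3% held an E-box and 14.9% held an N-box. The table had 7 promoters for 6 of the 10 genes (Chrna1, Chrnb1, Chrng, Chrne, Musk and Dok7), of which 6 held an E-box and 1 an N-box. Promoters of Chrnd, Rapsn, Lrp4 and Colq were not used here.

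Levels are given in TPM, a share of all transcripts that adjusts for length and so allows genes to be compared. Estimated reads, called expected counts, are given beside them. Replicate 1 held 32103374 expected counts and replicate 2 held 38977618. Detection meant reaching both 1 TPM and 5 expected counts, which 6350 genes did in replicate 1 and 6949 in replicate 2. Added spike-in RNAs made up 9.44% of TPM in replicate 1 and 4.54% of TPM in replicate 2. For 25 spike-ins both libraries reached 10 counts, and their log2 ratio of replicate 1 to replicate 2 had a median of 0.98 and ran from -2.60 to 2.33. Skeletal muscle identity was clear, since all 6 of its markers were detected in both libraries and Acta1, the skeletal actin, stood at 64537 TPM in replicate 1 and 61754 TPM in replicate 2. In tissue RNA, fewer cells of a type and less RNA per cell cannot be told apart.

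The endplate programme was present in both libraries, but not with the same members. Of the 10 genes, 7 were detected in both, namely Chrna1, Chrnb1, Chrng, Lrp4, Musk, Dok7 and Rapsn. Chrne was detected only in replicate 1, and Chrnd and Colq only in replicate 2. Of all 43346 genes, 4356 were detected in both libraries, which is 48.7% of the genes detected in at least 1. The summed level of the 10 genes was nearly equal, at 374 TPM in replicate 1 and 407 TPM in replicate 2 (390 ± 22.8 TPM, SD, n = 2). That is 0.0390% of all TPM. The single genes were spread far more, as the plot of TPM by library shows.

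**Figure D1:**
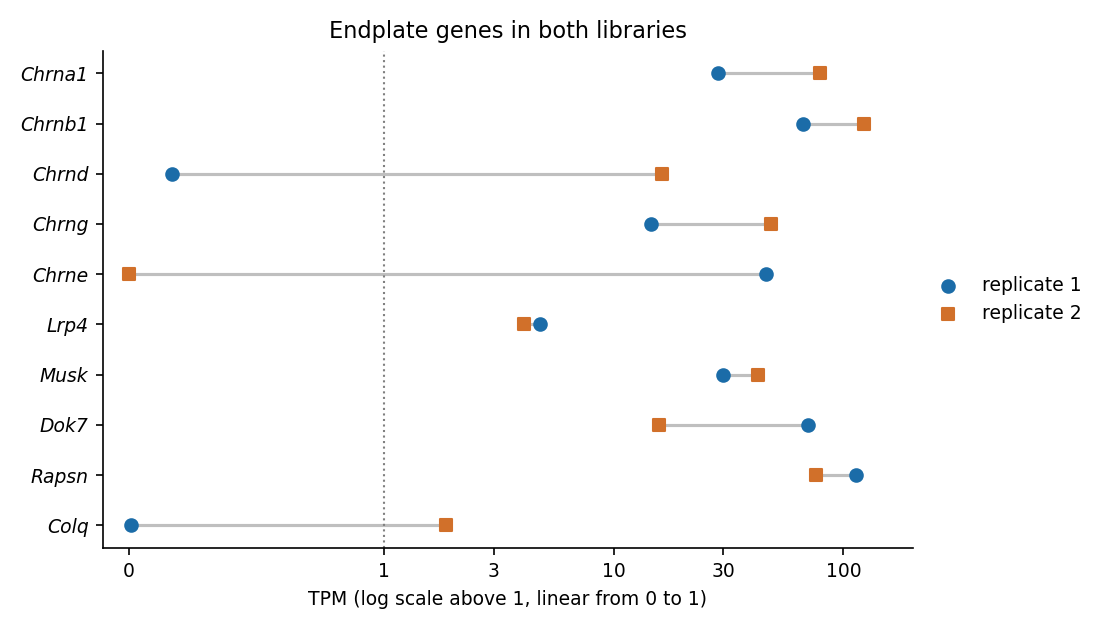
TPM of the 10 endplate genes in replicate 1 (circles) and replicate 2 (squares), on an axis that is logarithmic above 1 TPM (dotted line) and linear below it. Lrp4, Musk and Rapsn lie close together in both libraries, whereas Chrne is at 45.8 TPM in replicate 1 and 0 in replicate 2 and Chrnd is at 0.17 TPM in replicate 1 and 16.2 TPM in replicate 2.

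Chrnb1, the beta subunit gene on chromosome 11 (69784036 to 69795943, minus strand, GRCm38), was the most abundant receptor gene in both libraries. It had 66.8 TPM in replicate 1 and 123 TPM in replicate 2, from 3340 and 7892 expected counts, a 1.85-fold difference. Chrna1, the alpha subunit gene that carries most of the acetylcholine binding site (chromosome 2, 73563215 to 73580338, minus strand), had 28.4 TPM in replicate 1 and 78.8 TPM in replicate 2. The single transcript of Chrna1 in the tables drew 2971 counts in replicate 1 and 10555 in replicate 2. Both genes were thus well covered in each library and higher in replicate 2. The ratio of alpha to beta TPM was 0.425 in replicate 1 and 0.639 in replicate 2 (0.532 ± 0.151, SD, n = 2), so the transcript of the subunit used as a pair was the lower of the pair of genes in both. The RNA ratio is not a ratio of proteins, which were not measured.

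Chrnd, the delta subunit gene (chromosome 1, 87190607 to 87200070, plus strand), had 0.17 TPM from 12 counts in replicate 1, where the exact Poisson 95% interval is 6.2 to 21 counts. In replicate 2 it had 16.2 TPM from 1401 counts. Of the 7 endplate genes with at least 1000 counts in replicate 2, Chrnd was the 1 not detected in replicate 1, beside 31.4% of all such genes. None of the 7 had 0 counts there, beside 20.7% of all such genes. After scaling to library totals, replicate 2 was 96.2-fold higher, with a counting interval of 54.9 to 187. The reads carry no molecular identifiers, so intervals here cover counting error only. Chrng, the fetal gamma gene, lies on the same strand 4586 bases beyond Chrnd, at 87204657 to 87212694. It had 14.5 TPM in replicate 1 and 48.3 TPM in replicate 2, from 948 counts (889 to 1010) and 3346 counts (3234 to 3461). Both neighbours were higher in replicate 2, but the near-absence of delta in replicate 1 was not shared by gamma.

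Chrne, the adult epsilon gene (chromosome 11, 70614883 to 70619216, minus strand), went the opposite way. It had 45.8 TPM from 1587 counts in replicate 1 (1510 to 1667), which placed it at rank 2675 of all genes. In replicate 2 it had 0 counts, which allows up to 3 counts or 0.0967 TPM. After scaling to library totals, replicate 1 was at least 642-fold higher, with 3 counts as the floor of replicate 2. Such a split between the libraries was also seen for other genes and for added RNAs. Its cause for Chrne was not tested. In 27 spike-ins a library reached 1000 counts, and 4 of them had 0 counts in the other library. Of the genes with at least 1000 counts in replicate 1, 18.9% had 0 counts in replicate 2, and of those with 1000 to 3000 counts 27.0% did. Of the 6 endplate genes with at least 1000 counts in replicate 1, Chrne was the 1 with 0 in replicate 2.

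The fetal share of the gamma and epsilon pair therefore had no common value. By TPM, gamma made up 24.0% of gamma and epsilon in replicate 1 and 100% in replicate 2 (62.0 ± 53.7%, SD, n = 2). By expected counts it was 37.4% of 2535 in replicate 1 (exact binomial 95% interval 35.5 to 39.3) and 100% of 3346 in replicate 2 (99.9 to 100). The intervals are narrow and far apart, so the spread between libraries and not the number of reads sets the error. The sum of gamma and epsilon was steadier than either, at 60.3 TPM in replicate 1 and 48.3 TPM in replicate 2 (54.3 ± 8.47 TPM). The ratio of alpha to gamma was 1.96 in replicate 1 and 1.63 in replicate 2 (1.80 ± 0.233), whereas alpha to the sum of gamma and epsilon was 0.471 and 1.63.

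**Figure D2:**
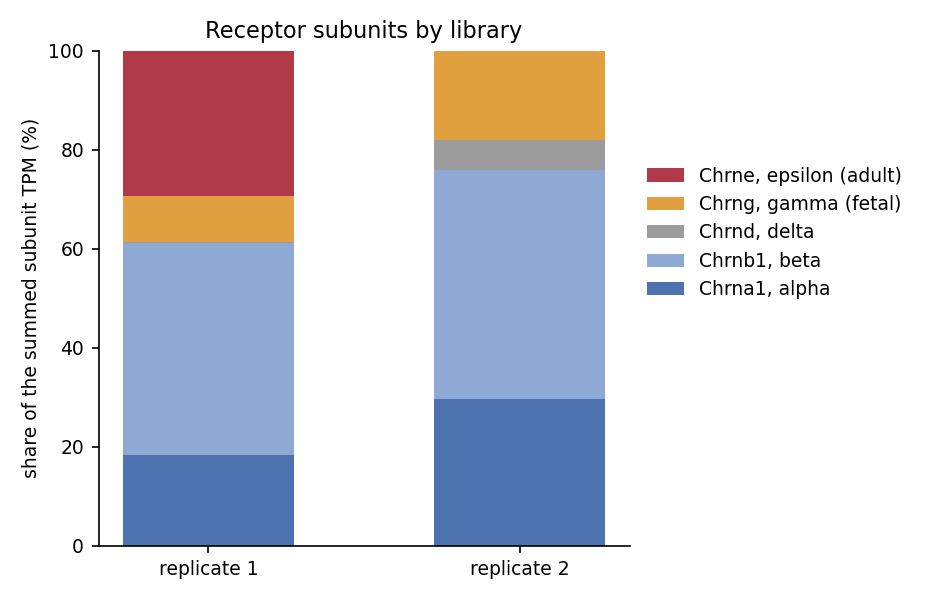
Share of each receptor subunit gene in the summed TPM of the 5 subunits, in percent, for replicate 1 and replicate 2. Beta takes 42.9% and 46.3%, while epsilon takes 29.4% and 0% and delta 0.109% and 6.07%.

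The 5 subunits together had 156 TPM in replicate 1 and 267 TPM in replicate 2 (211 ± 78.5 TPM). Within that sum beta was the steadiest part, at 42.9% in replicate 1 and 46.3% in replicate 2 (44.6 ± 2.37%). Alpha was 18.2% and 29.5% (23.9 ± 7.99%), and gamma was 9.31% and 18.1% (13.7 ± 6.23%). Each library had 4 of the 5 subunit genes detected, replicate 1 without delta and replicate 2 without epsilon. Replicate 2 had the full set of the fetal channel, and replicate 1 had alpha, beta, gamma and epsilon.

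Among the genes of agrin signalling, Musk, the gene of the muscle-specific kinase, differed 1.42-fold in TPM between libraries. Musk (chromosome 4, 58285960 to 58374303, plus strand) had 29.9 TPM in replicate 1 and 42.4 TPM in replicate 2 (36.1 ± 8.86 TPM), from 2065 and 3039 counts. Lrp4, the agrin receptor (chromosome 2, 91457511 to 91513779, plus strand), was low in both. It had 4.78 TPM in replicate 1 and 4.06 TPM in replicate 2 (4.42 ± 0.509 TPM), from 912 and 402 counts. The ratio of Musk to Lrp4 was 6.24 in replicate 1 and 10.4 in replicate 2.

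Dok7, the adaptor that activates MuSK from inside the fibre (chromosome 5, 35056766 to 35087839, plus strand), was higher in replicate 1. It had 70.3 TPM in replicate 1 and 15.8 TPM in replicate 2, from 4303 and 1322 counts, a 4.45-fold difference. Rapsn, the gene of the clustering protein rapsyn (chromosome 2, 91035620 to 91045729, plus strand), had 114 TPM in replicate 1 and 75.9 TPM in replicate 2 (94.8 ± 26.8 TPM). Its counts were 4147 and 3554, and it was the most abundant of the 10 genes in replicate 1. The ratio of Rapsn to Chrna1 was 4.0 in replicate 1 and 0.963 in replicate 2, and that of Dok7 to Musk was 2.35 and 0.373. Those orders turned round between libraries.

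Colq (chromosome 14, 31523082 to 31591343, minus strand), which encodes the collagen tail of acetylcholinesterase, was the lowest of the 10 by mean. It had 0.01 TPM from 1 count in replicate 1 and 1.86 TPM from 161 counts in replicate 2. After scaling to library totals, replicate 2 was 133-fold higher, with a counting interval of 23.5 to 5270. Ache, the enzyme that COLQ anchors, was high where Colq was not, with 74.3 TPM in replicate 1 and 0.12 TPM in replicate 2, from 3852 and 8 counts. Ache was named after its values were seen. Of the 100-base windows of Colq-205, 3.65% are shared with Gm49387, a gene of the later annotation that was not analysed here.

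Ordered by mean TPM, the genes ran Chrnb1, Rapsn, Chrna1, Dok7, Musk, Chrng, Chrne, Chrnd, Lrp4 and Colq. Of the 9 steps between neighbours in that order, 2 exceeded the larger SD of the neighbours, Rapsn over Chrna1 and Lrp4 over Colq, although in replicate 2 Rapsn stood below Chrna1. Among the 45 pairs of genes, 29 had the same order in both libraries. TPM was higher in replicate 1 for Chrne, Dok7, Rapsn and Lrp4 and higher in replicate 2 for the other 6 genes. On the log2(TPM + 1) scale the ratio of replicate 1 to replicate 2 was 5.55 for Chrne, 2.09 for Dok7, 0.58 for Rapsn and 0.19 for Lrp4, and the last pair turned to -0.41 and -0.79 when centred on the spike-in median of 0.98. It was -0.49 for Musk, -0.88 for Chrnb1, -1.44 for Chrna1, -1.50 for Colq, -1.67 for Chrng and -3.88 for Chrnd. Chrnd lay outside the spike-in range of -2.60 to 2.33. Chrne and Colq are not set against that range. Each spike-in in it had at least 10 counts in both libraries, which these genes did not reach. The other 7 genes lay inside it with either pseudocount, with no centring of genes or spike-ins. A narrower range, from -0.99 to 2.33, came from the 10 spike-ins with a mean count between 1000 and 10 times as many. Of the genes with such mean counts, Chrna1 at -1.44 and Chrng at -1.67 lay below that narrower range. Chrnb1, Musk, Dok7 and Rapsn lay inside it. The median ratio was 0.98 for the 25 spike-ins and 0.92 for these 10, but 0.05 for genes. Neither range is thus centred where gene ratios are. Dok7, at 2.09, lay nearest the upper end of 2.33. Centred on the median gene, Dok7 was 2.04. That lay above the range of the 25 spike-ins once the range was lowered by its own median of 0.98.

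These differences were set beside those of all genes with at least 1000 counts in a library, a set not matched on level that includes far more abundant genes. Of the 8 with at least 1000 counts in at least 1 library, 6 were detected in both, against 59.4% of all such genes. Over 2-fold differences were seen for 5 of those 8, against 68.1% of all such genes. They were higher in replicate 1 for 2 genes, Chrne and Dok7, where the share of all such genes was 31.5%, and higher in replicate 2 for 3, Chrna1, Chrnd and Chrng, where it was 36.6%.

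**Figure D3:**
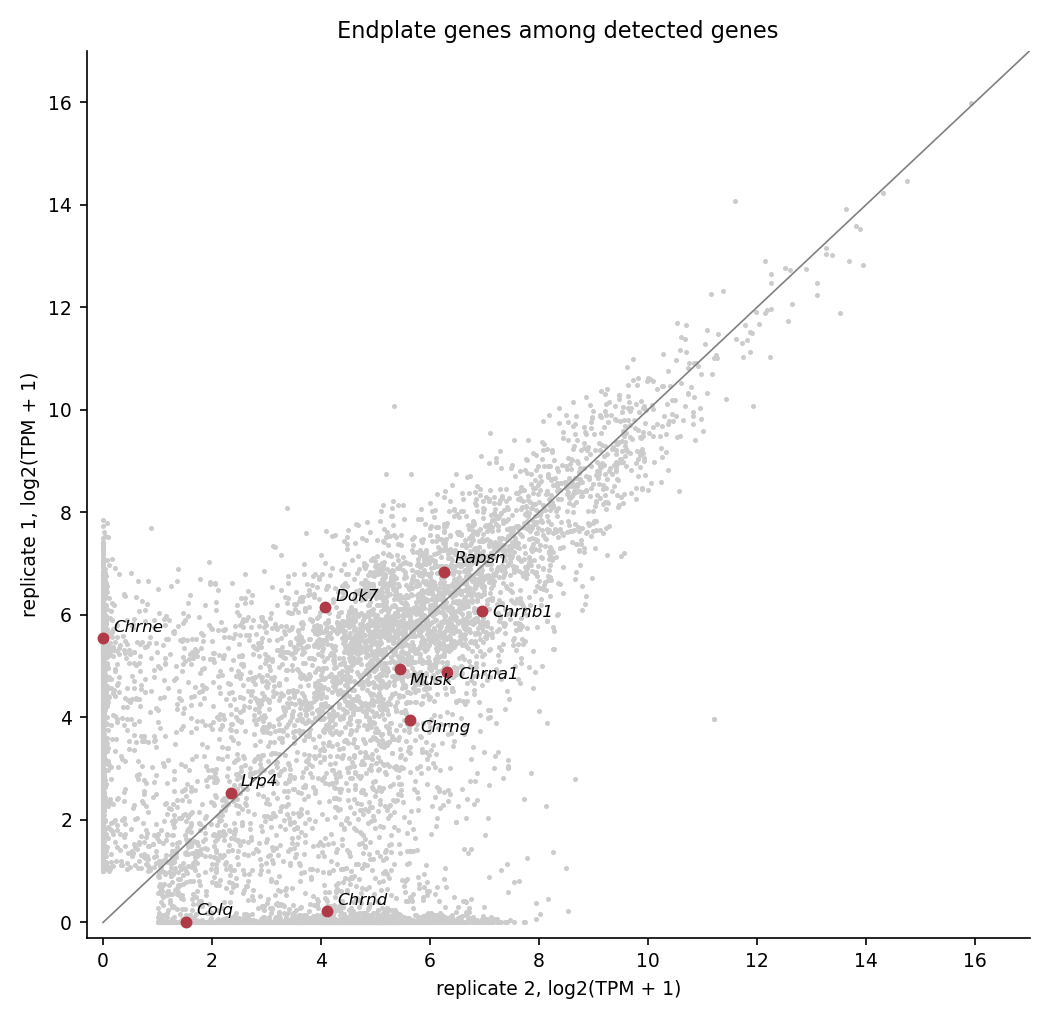
Each gray point is a gene detected in at least 1 library, with log2(TPM + 1) of replicate 2 across and of replicate 1 up, and the line marks equal values. Chrne lies among many genes on the left edge at 0 in replicate 2, and Chrnd and Colq lie among those near the bottom edge.

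Loss of a gene from one library was also set against level. Detected endplate genes ranged from 1.86 to 123 TPM. Of all genes of replicate 1 in that range, 64.2% were found in replicate 2, beside 7 of the 8 endplate genes detected in replicate 1. In the other direction 58.0% were found, beside 7 of the 9 endplate genes detected in replicate 2. The share found was 50.2% at 1 to 3 TPM in replicate 1, 55.0% at 3 to 10, 59.5% at 10 to 30, 69.7% at 30 to 100 and 91.6% at 100 to 300 TPM. Chrne at 45.8 TPM in replicate 1 fell in the range of 30 to 100 TPM. Chrnd at 16.2 TPM in replicate 2 fell where 51.6% of genes were found in replicate 1, and Colq where 42.9% were.

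**Figure D4:**
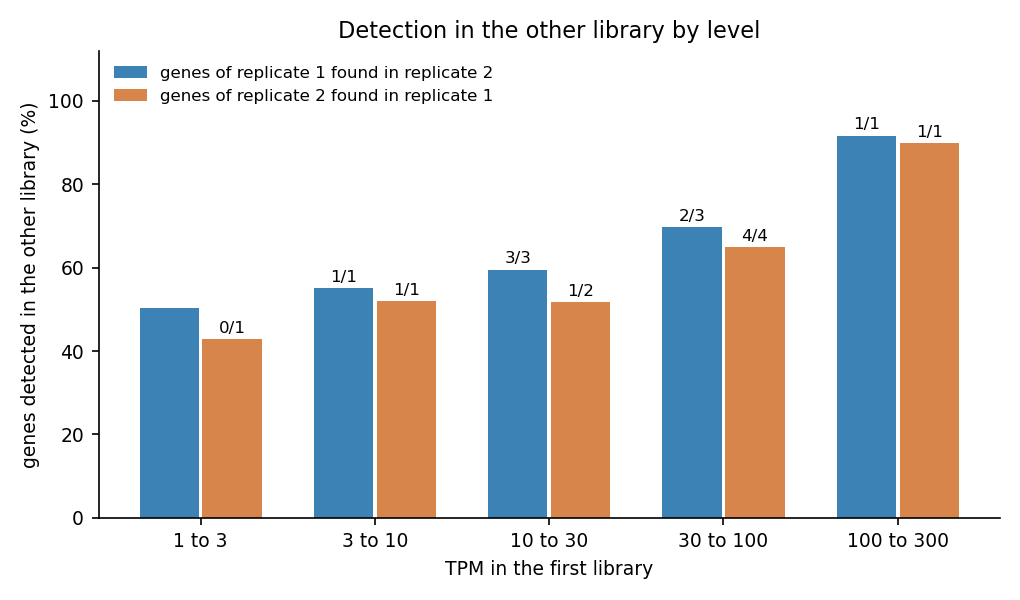
Percent of detected genes of one library that were detected in the other, by TPM range, for replicate 1 to replicate 2 and for replicate 2 to replicate 1. Labels above the bars give endplate genes found over endplate genes in the range, and the share found reaches 91.6% and 89.9% at 100 to 300 TPM.

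At the level of transcripts the picture of Lrp4 changed. The 10 genes had 43 transcripts in the tables, of which 17 had at least 5 counts in each library and 10 had them in both. All 912 Lrp4 counts of replicate 1 were assigned to Lrp4-201, the coding transcript of 38 exons, which had 0 counts in replicate 2. All 402 counts of replicate 2 were assigned to Lrp4-203, a noncoding transcript of 12 exons, which had 0 counts in replicate 1. After scaling to library totals, Lrp4-201 was at least 369-fold higher in replicate 1, and Lrp4-203 at least 110-fold higher in replicate 2. The nearly equal gene levels of Lrp4 thus came from reads assigned to different transcripts. With coding transcripts alone, 6 of the 10 genes were detected in both libraries in place of 7, a count made after the values were seen. That loss touched 1 of the 7 endplate genes, beside 6.83% of all protein-coding genes detected in both.

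The ends of these transcripts are shown because they are where the coding and noncoding transcripts of Lrp4 and Musk part. Lowercase marks the last 30 bases of the shared exon and capitals the 30 bases that follow it in each transcript. In Lrp4-201 exon 12 of 38 (91477521 to 91477751) joins the exon starting at 91478510, whereas Lrp4-203 reads on for 1536 bases to 91479287. In Musk-202 exon 5 of 15 (58303845 to 58303986) joins the exon starting at 58333565, whereas Musk-206 reads on for 338 bases to 58304324. Sequences are from GENCODE M21 transcripts on GRCm38.
Lrp4-201: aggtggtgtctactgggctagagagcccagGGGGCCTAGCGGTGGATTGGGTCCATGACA
Lrp4-203: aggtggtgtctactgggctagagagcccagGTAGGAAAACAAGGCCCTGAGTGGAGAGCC
Musk-202: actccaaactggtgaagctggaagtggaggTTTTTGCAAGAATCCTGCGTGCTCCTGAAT
Musk-206: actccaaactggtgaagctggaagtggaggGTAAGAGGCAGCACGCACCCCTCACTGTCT

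Musk kept its leading transcript. Musk-202, which is coding, had 14.7 TPM in replicate 1 and 25.4 TPM in replicate 2, which is 49.3% and 60.01% of the gene. The noncoding Musk-206, which ends in the intron after exon 5, had 5.16 TPM in replicate 1 and 16.5 TPM in replicate 2, from 101 and 416 counts. Coding transcripts made up 82.7% of Musk TPM in replicate 1 and 61.0% in replicate 2. Musk-207 was seen in replicate 1, with 498 counts and a posterior SD of 81.3 counts, and had 0 in replicate 2.

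Dok7 did not keep its leading transcript. Dok7-201, of 9 exons with a coding length of 1710 bases, held 61.0% of Dok7 TPM in replicate 1 from 2509 counts and had 0 counts in replicate 2. Dok7-203, of 7 exons with a coding length of 1512 bases, had 27.4 TPM in replicate 1 and 15.8 TPM in replicate 2, from 1794 and 1322 counts. After scaling to library totals, Dok7-201 was at least 1015-fold higher in replicate 1. The level of Dok7-203 alone therefore differed much less between libraries than the 4.45-fold of the gene. Of the 6 endplate genes detected in both libraries with several transcripts, Lrp4 and Dok7 changed their leading transcript, 2 of 6 beside 34.4% of all such genes.

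**Figure D5:**
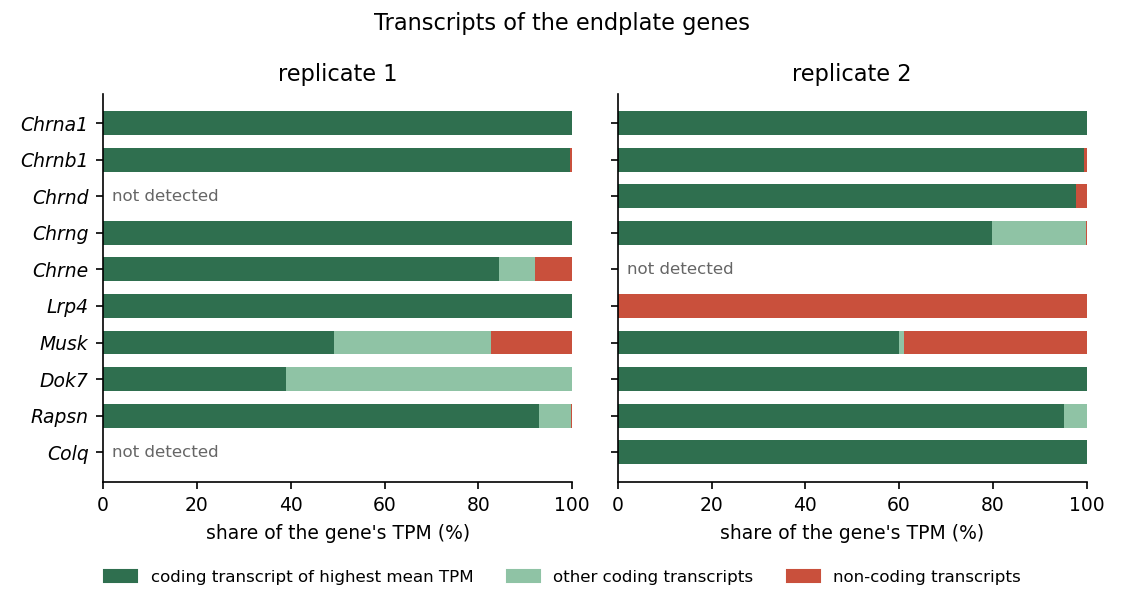
Share of each endplate gene's TPM, in percent, taken by its coding transcript of highest mean TPM, by its other coding transcripts and by noncoding transcripts, for replicate 1 (left) and replicate 2 (right). Lrp4 is all coding in replicate 1 and all noncoding in replicate 2, and the other coding transcript of Dok7, Dok7-201, takes 61.0% in replicate 1 and 0% in replicate 2.

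The receptor subunits were mostly read from 1 transcript each. Chrnb1-201 held 99.5% of Chrnb1 TPM in both libraries. Chrng-201 held 100% of Chrng in replicate 1 and 79.8% in replicate 2, where the 453-base Chrng-204 took 19.2% from 102 counts. Chrne-202 held 84.5% of Chrne in replicate 1, and 7.85% was a transcript with a retained intron, Chrne-203. Rapsn-201 held 93.0% of Rapsn in replicate 1 and 95.2% in replicate 2. Whether strand was used in counting is not given in the sources used here. The genes annotated over Chrne on the opposite strand (4930544D05Rik) and over Rapsn (Gm13778) had 0 counts in both libraries.

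The wider synaptic genes gave the setting of these values. Of 18 genes of agrin signalling and the scaffold, 11 were detected in both libraries, led by Ncam1, a cell adhesion gene, at 246 TPM in replicate 1 and 253 TPM in replicate 2. Agrn, the gene of agrin, had 33.2 TPM in replicate 1 and 23.9 TPM in replicate 2 (28.6 ± 6.58 TPM). Dtna, the gene of the scaffold protein alpha-dystrobrevin, had 330 and 95.5 TPM, and Dag1, which encodes dystroglycan, had 30.4 and 108 TPM. Agrn and Ncam1 were close in both libraries, while Dtna and Dag1 went opposite ways.

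Of 11 genes of synaptic transcription, 4 were detected in both libraries. Myog, the myogenic factor myogenin, had 201 TPM in replicate 1 and 264 TPM in replicate 2, and Myod1 had 2.31 and 17.2 TPM. The neuregulin receptors Erbb2 and Erbb3 had 1.30 and 1.97 TPM in replicate 1 and 17.2 and 6.91 TPM in replicate 2. All 4 were higher in replicate 2, as were 6 of the endplate genes, namely Chrna1, Chrnb1, Chrnd, Chrng, Musk and Colq. The other 4 endplate genes, Chrne, Dok7, Rapsn and Lrp4, were higher in replicate 1. Whether these directions are linked was not tested.

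Of 12 genes of the synaptic cleft, 4 were detected in both libraries. Hspg2, the gene of perlecan, had 73.1 TPM in replicate 1 and 15.6 TPM in replicate 2, although its counts were 6203 and 6852. Nid2 had 50.4 and 30.4 TPM. The laminin chain genes Lama4 and Lamb2 had 33.4 and 5.28 TPM in replicate 1 and 45.1 and 17.9 TPM in replicate 2. Of 5 glycosylation genes linked to congenital myasthenia, 0 were detected in both, 3 in replicate 1 alone and 2 in replicate 2 alone. Counting only genes detected in at least 1 library, both libraries held 11 of 15 genes of agrin signalling and the scaffold, 4 of 7 of synaptic transcription, 4 of 6 of the cleft and 0 of 5 of glycosylation, beside 48.7% of all such genes.

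Of 11 other nicotinic receptor subunit genes, 10 were detected in neither library and 7 had 0 counts in both. Of all genes 79.4% were detected in neither library, so that count is not particular to the list. Chrna9 had 37.5 TPM from 1886 counts in replicate 2 and 0 in replicate 1, and was named after its values were seen.

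Genes of Schwann cells and motor nerve also differed between the libraries and stand beside the Chrne value. The 7 Schwann cell markers summed to 247 TPM in replicate 1 and 25.5 TPM in replicate 2, with 2 of 7 detected in both, Ngfr and Erbb3. Mbp made most of the sum, at 196 TPM in replicate 1 and 0.01 TPM in replicate 2, while the defining gene Sox10 had 0 TPM in replicate 1 and 0.01 TPM in replicate 2. The 9 motor nerve markers summed to 19.5 TPM in replicate 1 and 0.13 TPM in replicate 2, nearly all of it Stmn2, and 7 of them, Chat and Slc18a3 included, had 0 counts in both. Their part in the Chrne difference was not tested.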

How the data were processed

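RNA of 2 libraries of newborn skeletal muscle (1 group, biological replicates 1 and 2 of the labels) was read from gene and transcript tables. The authors deposited expected counts, estimated reads that are not normalized, in columns named as by RSEM, per the file headers. TPM and FPKM were scaled by the authors over all rows, spike-ins included, and the deposited percent of each gene's level per transcript sums to 100. Reads were assigned to mm10 with GENCODE M4, per the descriptions deposited with the files. The name of the aligner is not given in the sources used here.

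Symbols, transcript types and positions came from GENCODE M21 on GRCm38 by identifier without version, so a type may differ from that in M4. Promoters came from RefSeq (GRCm38.p6) and transcript sequences from GENCODE M21. Detection required both 1 TPM and 5 expected counts. Log2 ratios used TPM + 1. A count of 0 allows up to 3 counts. Count intervals are exact Poisson and shares exact binomial at 95%. Amplified reads are not separate molecules, so intervals cover counting error only, and replicate spread is that of 2 samples. With 1 group no test was made. The coding sequences were aligned with Biopython 1.88, and the rest was done with matplotlib 3.10.9, pandas 2.3.3, scipy 1.17.1 and numpy 2.4.6 in Python 3.11.15. The calculations were tested on simulated data.

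The genes and lists were chosen with earlier results of these data known. All 10 endplate genes are named. From each further list the genes detected in both libraries are named, at most the 4 with the highest mean TPM, plus Agrn, defining cell markers and the exceptions stated. Of the Schwann cell list, 1 gene is not reported singly here. Alternatives were other detection thresholds, thinning to equal depth, posterior means, FPKM, expected counts, coding transcripts alone, spike-in or median-gene centring, another pseudocount and each replicate left out.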

Additional observations from a re-analysis of the deposited data

How the results depend on the processing

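The number of endplate genes detected in both libraries, 7 of 10, was 9 with any count above 0, 6 when 5 TPM and 10 counts were required, 7 after thinning replicate 2 to the depth of replicate 1, 7 by posterior means and 6 with coding transcripts alone, the last chosen after the data were seen. The shares of genes at their level found in the other library, 64.2% and 58.0%, were 72.7% and 71.1% with any count above 0 and 59.6% and 53.3% at the stricter threshold. The gamma share, 62.0% by TPM, was 62.0% by FPKM, 62.1% by posterior means, 68.7% by expected counts and 62.8% with coding transcripts alone, and 24.0% to 100% with either replicate left out. The alpha share of the receptor subunits, 23.9%, was 39.5% by expected counts, which do not adjust for length. The summed level of the 10 genes, 0.0390% of TPM, was 0.0722% by expected counts and 0.0420% with spike-ins left out. Centring on the spike-ins turned the log2 ratio of Lrp4 to -0.79 from 0.19 and that of Rapsn to -0.41 from 0.58, and moved 6 others, among them Musk to -1.48 from -0.49. A pseudocount of 0.1 TPM moved Chrne to 8.84 from 5.55 and Chrnd to -5.91 from -3.88. Centring on the median gene, which shifted ratios by 0.05, turned none. Loss at this input was seen in spike-ins, 4 of 27, but for a single endplate gene it and a difference between pups cannot be told apart with 2 libraries.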
